A study of Mus musculus with 6 samples.

Results

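Lipoprotein lipase and the genes that govern its assembly, transport, inhibition and receptor uptake were followed in epididymal white adipose tissue (eWAT) of mice with and without lung cancer cachexia. They were the 9 genes named *Lpl*, *Gpihbp1*, *Lmf1*, *Lmf2*, *Sel1l*, *Angptl4*, *Angptl8*, *Vldlr* and *Lrp1* in the deposited count file of 54532 genes, and all 9 passed the filter on low counts that left 16003 genes for testing. Total RNA was sequenced from 3 control and 3 cachexia samples of male C57BL/6 mice. Mice of the cachexia group had been inoculated under the skin with LLC cells, a line derived from a Lewis lung tumor of the mouse, and were classed as cachectic by marked loss of body weight, whereas control mice were not described beyond the label control. Tissue was taken at the end of the third week, and the mice carried no transgene that the labels or methods name. The labels do not state whether each sample was 1 animal, so p-values measure the spread between these samples.

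Lipoprotein lipase (LPL) hydrolyzes the triglycerides of chylomicrons and very low density lipoproteins (VLDL) at the capillary wall and so releases fatty acids for uptake by fat. In adipose tissue the enzyme is made mainly by adipocytes, folds in the endoplasmic reticulum (ER) with the help of LMF1 and SEL1L, and is carried across the endothelium by GPIHBP1. Its activity in fat is set largely after translation by ANGPTL4 and ANGPTL8, so that the mRNA levels given here are not a measure of lipase activity.

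The genes of the set differed between groups in both directions. *Gpihbp1* and *Angptl4* rose in cachectic eWAT, by 3.00-fold and 2.34-fold, and *Angptl8* fell to a level 9.67-fold lower than in controls. *Lpl* itself was 1.75-fold lower in cachexia, a difference that did not pass the test. *Lmf1* and *Sel1l*, which serve the folding of LPL, and *Lmf2*, a paralog of *Lmf1*, differed by at most 0.25 on the log2 scale. The receptors *Vldlr* and *Lrp1* differed in opposite directions by 0.83 each on the log2 scale, and neither passed the test. With edgeR's quasi-likelihood test and adjusted p under 0.05, 3 of 9 members were called, while 17.6% of all tested genes were called. Of these, 2 members were higher against a background of 9.0%, and 1 member was lower against 8.63%. In 7 of 9 members the values of the 2 groups did not overlap, against 40.5% of all tested genes. The median log2 fold change was -0.18 over the 9 members and -0.0031 over all tested genes.

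**Figure D1:**
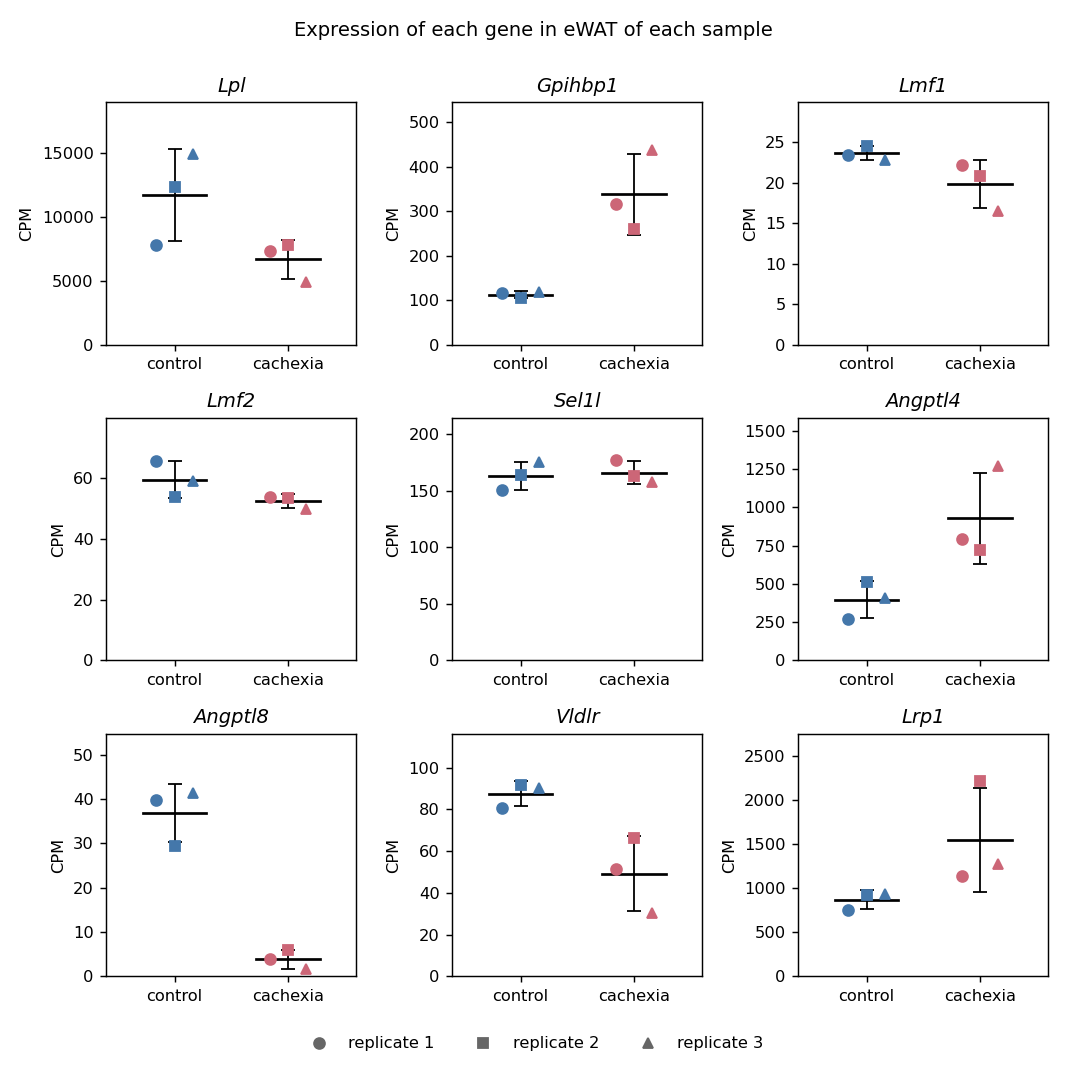
Expression of each of the 9 genes in CPM (counts scaled to a common library size) on axes that start at 0, with 1 point per sample, a horizontal line at the group mean and a bar of 1 SD (n = 3 per group). All cachexia points lie above the control points for *Gpihbp1*, *Angptl4* and *Lrp1* and below them for *Lpl*, *Lmf1*, *Angptl8* and *Vldlr*.

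Total counts per sample ranged from 14928766 to 18855546, and members had between 24 and 263430 counts in a sample. Control replicate 1 stood apart: the 6 markers of epididymal epithelium, the duct tissue next to this fat depot, summed to 100.1 CPM there, nearly all of it *Cuzd1* at 96.4 CPM, and to at most 2.62 CPM elsewhere, with *Defb15* at 0 in every sample. This library also had the lowest *Lpl*, *Angptl4*, *Sel1l*, *Vldlr* and *Lrp1* of the controls. Results without it are given for some genes and lists, but not separately for *Vldlr* and *Lrp1*. Adipocyte markers were abundant in both groups. *Cfd* and *Fabp4* led the list, whose 11 genes summed to 25897 to 33286 CPM in controls and 29105 to 44721 CPM in cachexia, but single markers went both ways. *Pnpla2* (log2 fold change 1.08) and *Cidec* (0.87) were called higher, in 11 and 5 of 15 other settings respectively, and neither was called without control replicate 2, control replicate 3 or cachexia replicate 1. *Plin1* went from 2074 to 767 CPM with no overlap and was not called (log2 fold change -1.44, edgeR adjusted p = 0.0570, past the threshold in 6 of 15 other settings), and *Tshr* (-0.73) and *Retn* (-0.60) were not called either. Markers of other cells moved with the groups as well: neutrophil markers summed to 27.9 to 47.9 CPM in controls and 246 to 639 CPM in cachexia, with 7 of 8 tested, all 7 called higher and *S100a9* and *S100a8* at the top, and 6 of 6 erythroid markers, led by *Hbb-bs* and *Hba-a1*, were higher (252 to 451 against 1333 to 2855 CPM). Fibroblast and fat progenitor markers, led by *Dcn* and *Col3a1*, summed to 5275 to 6061 CPM in controls and 2243 to 3245 CPM in cachexia, with 4 of 8 called lower and 2 without control replicate 1, 2 or 3 or cachexia replicate 2. Macrophage markers had 1 of 10 called in each direction (*Lyz2* and *Csf1r* were the most abundant and were not called, 1523 to 1895 against 1208 to 1866 CPM), and none in either direction without control replicate 2 or 3. None of 6 mesothelial markers (*Upk3b* and *Msln* among them, 271 to 361 against 155 to 353 CPM) and none of 3 tested of 6 skeletal muscle markers was called (24.2 to 40.7 against 7.12 to 58.8 CPM, mostly *Acta1*, with *Myh4* at 0). The part of these cell types in the results below was not tested, and in bulk tissue fewer cells of a type and less RNA per cell cannot be told apart.

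*Lpl* (ENSMUSG00000015568, chr8:68880491-68907448, plus strand) encodes the lipase. It was one of the most abundant mRNAs of the tissue and took 0.830%, 1.16% and 1.40% of all counts in control replicates 1 to 3, and 0.729%, 0.805% and 0.502% in cachexia replicates 1 to 3. In CPM, the count scaled to a common library size, its level was 7817, 12295 and 14927 in control replicates 1 to 3 and 7350, 7763 and 4912 in cachexia replicates 1 to 3. The groups did not overlap, but control replicate 1 and cachexia replicate 2 lay next to each other, and control replicate 3 was far above every cachexia sample. The mean was 11679 ± 3595 CPM in controls and 6675 ± 1541 CPM in cachexia (SD, n = 3 each). The log2 fold change was -0.81 (SE 0.34, 95% interval -1.59 to -0.02) with an edgeR adjusted p of 0.137 (unadjusted 0.0450). A two-sided exact permutation test gave p = 0.1, the smallest that 3 samples against 3 allow. Without control replicate 1 the log2 fold change was -1.03 (edgeR adjusted p = 0.0747), and DESeq2 on all samples gave -0.81 with an adjusted p of 0.0193.

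*Lpl* was also set against the mean log2(CPM + 0.5) of the 11 adipocyte markers. That mean differed by 0.02 between groups (exact permutation p = 1), but it averages markers with log2 fold changes from -1.44 (*Plin1*) to 1.08 (*Pnpla2*) and is no measure of adipocyte content. *Lpl* exceeded that mean by 2.67, 2.97 and 3.17 on the log2 scale in control replicates 1 to 3 and by 1.96, 2.76 and 1.68 in cachexia replicates 1 to 3. Cachexia replicate 2 lay within the controls, and the difference of -0.81 had an exact permutation p of 0.2. That overlap came from control replicate 1 alone. Without that library every cachexia sample lay below the controls, and the difference was -0.94. Over the 6 samples, the protein-coding genes with the profile most like that of *Lpl* among 13723 compared were *Lyst* (Pearson r = 0.998), which functions in lysosomal trafficking, *Cpped1* (0.994), a phosphatase, and *Yipf6* (0.994), a Golgi membrane protein. These correlations describe 6 points that share the group difference, and none of the 3 genes was called (edgeR adjusted p 0.0681, 0.118 and 0.324).

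**Figure D2:**
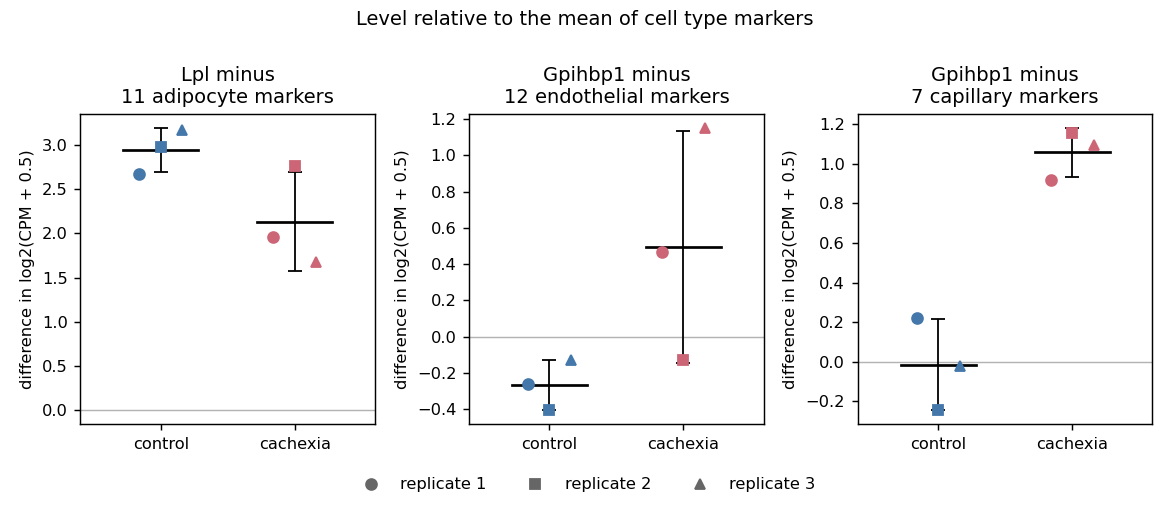
Level of *Lpl* relative to 11 adipocyte markers, and of *Gpihbp1* relative to 12 endothelial or 7 capillary markers, as the difference in log2(CPM + 0.5) from the mean of the markers, with 1 point per sample, a line at the group mean and a bar of 1 SD (n = 3). *Lpl* in cachexia replicate 2 (2.76) lies within the control range, above control replicate 1 alone (2.67). *Gpihbp1* relative to capillary markers is at 0.92 to 1.16 in cachexia and -0.24 to 0.22 in controls.

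*Gpihbp1* (ENSMUSG00000022579, chr15:75596628-75599481, plus strand) encodes the endothelial protein that binds LPL and moves it to the lumen of capillaries. Its level was 117, 104 and 118 CPM in control replicates 1 to 3 and 317, 259 and 438 CPM in cachexia replicates 1 to 3. Every cachexia sample was above every control, and the controls lay close together (113 ± 7.77 CPM) while the cachexia samples spread more widely (338 ± 91.0 CPM). The gene rose by 1.58 on the log2 scale (SE 0.21, 95% interval 1.10 to 2.07, edgeR adjusted p = 0.00398, exact permutation p = 0.1). It passed the threshold in 15 of 15 other settings of the analysis, with log2 fold changes of 1.36 to 1.74.

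Endothelial markers were higher in the same samples. Of 12 such genes 6 were called higher and none lower, *Pecam1* and *Cdh5* being the most abundant, and 2 were called higher without control replicate 2 or without control replicate 3. The list summed to 1950 to 2056 CPM in controls and 3099 to 4308 CPM in cachexia. Their mean differed by 0.78 on the log2 scale (exact permutation p = 0.1). It averages markers with log2 fold changes from 0.25 (*Kdr*) to 1.55 (*Esam*). The rise of *Esam*, called in 15 of 15 other settings, was about that of *Gpihbp1* (1.58). *Gpihbp1* minus this mean was -0.26, -0.41 and -0.13 in control replicates 1 to 3 and 0.47, -0.13 and 1.15 in cachexia replicates 1 to 3, a difference of 0.76 (exact permutation p = 0.1). Cachexia replicate 2 barely exceeded the highest control, and without cachexia replicate 3 the difference was 0.44. The 7 capillary markers went both ways. *Car4* (log2 fold change 2.05), *Btnl9* (1.56) and *Cd300lg* (1.51) were called higher, by about as much as *Gpihbp1* or more, although without control replicate 3 only *Cd300lg* was. *Tcf15* (-0.84) was called lower, in 10 of 15 other settings. The most abundant, *Rgcc* (-0.92, edgeR adjusted p = 0.0833) and *Timp4* (0.35), were not called. Their mean differed by 0.47 (exact permutation p = 0.3), and against it the *Gpihbp1* difference was 1.07 with no overlap (exact permutation p = 0.1), a value that depends on averaging these unlike markers.

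Little difference was seen in *Lmf1* and *Sel1l*, which serve folding and maturation of LPL in the ER, or in *Lmf2*. *Lmf1* (ENSMUSG00000002279, chr17:25579174-25662826, plus strand) encodes lipase maturation factor 1, which LPL needs to become active. It measured 23.5, 24.5 and 22.8 CPM in control replicates 1 to 3 and 22.2, 20.8 and 16.5 CPM in cachexia replicates 1 to 3. Controls were just above the cachexia samples, with a log2 fold change of -0.25 (95% interval -0.61 to 0.10, edgeR adjusted p = 0.289). *Lmf2* (ENSMUSG00000022614, chr15:89351004-89355659, minus strand), a paralog of *Lmf1*, measured 65.7, 53.7 and 59.2 CPM in controls and 54.0, 53.5 and 49.9 CPM in cachexia, in the same order of replicates. The groups overlapped, and the log2 fold change was -0.18 (95% interval -0.47 to 0.10, edgeR adjusted p = 0.333). *Sel1l* (ENSMUSG00000020964, chr12:91806043-91849157, minus strand) encodes the adaptor of the HRD1 ubiquitin ligase in ER-associated degradation and stabilizes the LPL and LMF1 complex. Its levels were 150, 164 and 175 CPM in controls and 177, 163 and 158 CPM in cachexia. The samples were interleaved, and the log2 fold change was 0.02 (95% interval -0.28 to 0.32, edgeR adjusted p = 0.916).

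Few other genes of ER quality control that work with SEL1L were called. Of 19 tested, none was higher and 1 was lower, against 9.0% and 8.63% of all tested genes. The median log2 fold change was -0.01. Some differed more than *Sel1l* with no overlap of groups and were not called. Lower were *Syvn1* (log2 fold change -0.43, edgeR adjusted p = 0.0707), *Erlec1* (-0.40, 0.0918), *Vcp* (-0.28, 0.173) and *Faf2* (-0.21, 0.306), and higher was *Derl3* (1.12, 0.144). The gene called lower was *Edem1*, which extracts misfolded glycoproteins for degradation, from 200 ± 41.8 to 91.2 ± 13.9 CPM (log2 fold change -1.13, SE 0.20, edgeR adjusted p = 0.00997). This call held in 14 of 15 other settings and was lost without control replicate 3.

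The angiopoietin-like genes *Angptl4* and *Angptl8* changed in opposite directions as mRNA, which does not say how their effects on LPL combine. *Angptl4* (ENSMUSG00000002289, chr17:33773750-33781575, minus strand) encodes a secreted protein that unfolds LPL and is induced in fat by fasting. Its level was 268, 510 and 409 CPM in control replicates 1 to 3 and 791, 722 and 1267 CPM in cachexia replicates 1 to 3. All cachexia samples exceeded all controls, with means of 927 ± 297 and 396 ± 121 CPM. The gene rose by 1.23 on the log2 scale (SE 0.31, 95% interval 0.52 to 1.94, edgeR adjusted p = 0.0315, exact permutation p = 0.1). Of the 3 calls this was the only one lost in any other setting. It was lost when control replicate 1 was left out (log2 fold change 1.01, edgeR adjusted p = 0.0639), and likewise without control replicate 2 (1.45, 0.0511), control replicate 3 (1.25, 0.108), cachexia replicate 1 (1.33, 0.0550) or cachexia replicate 3 (0.94, 0.0677).

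*Angptl8* (ENSMUSG00000047822, chr9:21835510-21837347, plus strand) encodes a small protein induced by feeding and insulin, which binds other ANGPTL proteins and alters their action on LPL. It had 795, 511 and 731 counts in control replicates 1 to 3 and 67, 96 and 24 counts in cachexia replicates 1 to 3. These correspond to 39.9, 29.3 and 41.4 CPM and to 3.91, 5.90 and 1.57 CPM. The lowest control was far above the highest cachexia sample. The gene fell by 3.27 on the log2 scale (SE 0.41, 95% interval -4.22 to -2.33, edgeR adjusted p = 0.00351, exact permutation p = 0.1), a 9.67-fold lower level with an interval of 5.03 to 18.6. Only 179 of the tested genes had a larger absolute log2 fold change, and the call held in 15 of 15 other settings. *Angptl8* lies within *Dock6* on the opposite strand, and whether reads were counted by strand is not given in the sources used here. *Dock6* measured 95.7 CPM in controls and 123 CPM in cachexia (log2 fold change 0.36, edgeR adjusted p = 0.316), so the neighbor did not show the fall of *Angptl8*.

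**Figure D3:**
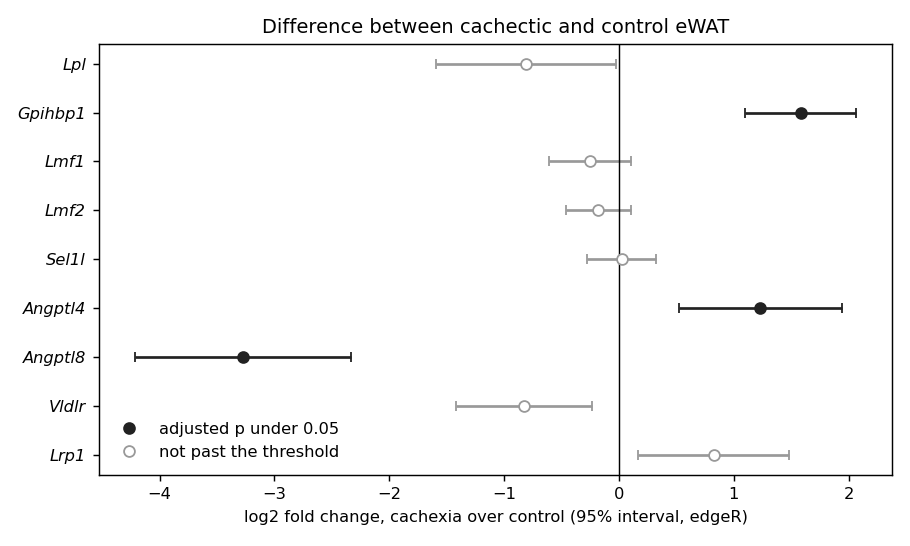
Log2 fold change of cachexia over control for each of the 9 genes with its 95% interval from edgeR. Filled points mark an adjusted p under 0.05 and are *Gpihbp1* (1.58), *Angptl4* (1.23) and *Angptl8* (-3.27). The intervals of *Lpl*, *Vldlr* and *Lrp1* exclude 0 without correction for the number of genes tested, and those of *Lmf1*, *Lmf2* and *Sel1l* include it.

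*Vldlr* (ENSMUSG00000024924, chr19:27216484-27254231, plus strand) encodes the VLDL receptor, which binds apolipoprotein E-rich particles and aids LPL-dependent lipolysis in fat. Its level was 80.5, 91.6 and 90.4 CPM in control replicates 1 to 3 and 51.3, 66.1 and 30.2 CPM in cachexia replicates 1 to 3. No cachexia sample reached the lowest control, and cachexia replicate 3 was the lowest of all. The log2 fold change was -0.83 (SE 0.26, 95% interval -1.42 to -0.24), with an edgeR adjusted p of 0.0610 and an exact permutation p of 0.1. The gene passed the threshold in 3 of 15 other settings, namely with no filter on low counts (adjusted p = 0.0412), with DESeq2 (0.0163) and without cachexia replicate 2 (0.0314). *Lrp1* (ENSMUSG00000040249, chr10:127538161-127621148, minus strand) encodes a large endocytic receptor that clears remnant particles and LPL. It measured 751, 924 and 940 CPM in control replicates 1 to 3 and 1138, 2220 and 1277 CPM in cachexia replicates 1 to 3. All cachexia samples were above the controls, but cachexia replicate 2 stood far above the rest. The log2 fold change was 0.83 (SE 0.28, 95% interval 0.17 to 1.48, edgeR adjusted p = 0.0824, exact permutation p = 0.1), and 0.47 without that sample. DESeq2 gave an adjusted p of 0.0134. The antisense gene *Gm16217* within *Lrp1* had 0.0334 CPM in controls and 0.236 CPM in cachexia.

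The upstream sequence of members is shown for the gene with the greatest difference, *Angptl8*, for *Sel1l*, which was the flattest, and for *Vldlr*. RefSeq promoters on GRCm38.p6 were found for 6 of 9 members, the others being *Lpl*, *Gpihbp1* and *Angptl4*. The 250 bases before the start of each gene are written 5′ to 3′ on the strand of the gene, and capitals mark any match to 5 motifs searched on both strands: the TATA box TATAAA, the CCAAT box, the GC box GGGCGG, and the nuclear receptor half-sites AGGTCA and GGGTCA.
*Angptl8*, plus strand, chr9:21835260-21835509: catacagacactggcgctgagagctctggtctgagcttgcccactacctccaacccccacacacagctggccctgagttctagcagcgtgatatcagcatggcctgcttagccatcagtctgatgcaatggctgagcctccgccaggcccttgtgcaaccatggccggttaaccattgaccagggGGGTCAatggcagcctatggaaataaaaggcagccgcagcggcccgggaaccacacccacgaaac
*Sel1l*, minus strand, chr12:91849158-91849407: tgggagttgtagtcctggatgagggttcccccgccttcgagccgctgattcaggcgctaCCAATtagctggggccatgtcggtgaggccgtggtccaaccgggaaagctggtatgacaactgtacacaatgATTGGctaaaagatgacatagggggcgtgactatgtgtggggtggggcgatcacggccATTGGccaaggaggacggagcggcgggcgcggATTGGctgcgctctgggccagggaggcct
*Vldlr*, plus strand, chr19:27216234-27216483: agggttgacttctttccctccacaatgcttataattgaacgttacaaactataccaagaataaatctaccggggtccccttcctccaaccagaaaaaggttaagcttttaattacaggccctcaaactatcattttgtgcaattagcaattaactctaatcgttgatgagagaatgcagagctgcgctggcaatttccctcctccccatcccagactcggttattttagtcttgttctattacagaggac
The *Angptl8* sequence held 1 match, a GGGTCA 65 bases before the start, a motif present in 11.6% of 32851 promoters of the same length. The *Sel1l* sequence held 4 CCAAT boxes, at 191, 119, 61 and 29 bases before the start. At least 1 CCAAT box was found in 33.8% of promoters and at least 4 in 0.84%. The *Vldlr* sequence held none of the 5 motifs, as did 27.5% of promoters, and was 41.6% G and C against a median of 52.4%. GC boxes were found in *Lmf1* (1 match), *Lrp1* (1 match) and *Lmf2* (2 matches) and in 32.7% of promoters. The shares with a TATAAA and an AGGTCA were 12.4% and 14.0%. A match describes letters only and not a bound site.

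Levels were compared between genes per gene length, as FPKM, which divides a count by the gene's length and the library's size. In controls the order of mean FPKM was *Lpl* (1100), *Angptl4* (119), *Lrp1* (48.6), *Gpihbp1* (43.6), *Angptl8* (42.1), *Sel1l* (18.8), *Lmf2* (15.1), *Vldlr* (8.58) and *Lmf1* (1.73). Neighbors overlapped in their ranges from *Lrp1* to *Gpihbp1* and from *Gpihbp1* to *Angptl8*, and no others did. In cachexia the order was *Lpl* (623), *Angptl4* (276), *Gpihbp1* (129), *Lrp1* (85.2), *Sel1l* (18.9), *Lmf2* (13.2), *Vldlr* (4.78), *Angptl8* (4.28) and *Lmf1* (1.44), with overlap between *Gpihbp1* and *Lrp1* and between *Vldlr* and *Angptl8*. *Gpihbp1* thus moved from rank 1043 to rank 304 of the 54532 genes and *Angptl4* from 311 to 116, while *Lpl* went from 25 to 46. These levels use the deposited lengths, which join all exons of a gene. For *Lpl* that length is 10478 bases while the longest coding transcript in GENCODE M21 has 4115, and for *Lmf1* it is 13471 against 2003, so both are low on this scale.

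**Figure D4:**
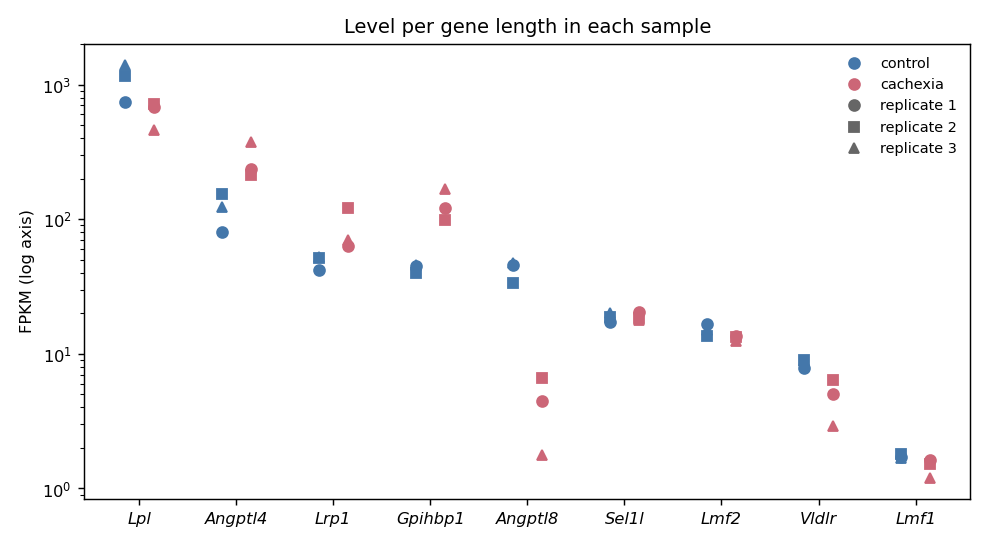
Level of each gene in FPKM on a log axis in the 6 samples, with genes ordered by their mean in controls, color for the group and marker shape for the replicate. With the deposited lengths, *Angptl8* drops from the level of *Gpihbp1* and *Lrp1* in controls (42.1 FPKM) to that of *Vldlr* in cachexia (4.28 FPKM). Per kilobase of the longest coding transcript, the control means were 42.6 CPM for *Angptl8*, 68.3 for *Gpihbp1* and 58.5 for *Lrp1*.

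Ratios of mRNA levels were formed for some pairs of members, not all of which include *Lpl*. The ratio of *Lpl* to *Gpihbp1* FPKM was 16.3, 28.9 and 30.9 in control replicates 1 to 3 and 5.65, 7.30 and 2.74 in cachexia replicates 1 to 3. *Lpl* exceeded *Angptl4* by a ratio of 9.14, 7.57 and 11.4 in controls and 2.91, 3.37 and 1.22 in cachexia. Per length of the longest coding transcript the *Lpl* to *Angptl4* ratios were 23.4, 19.4 and 29.3 in controls and 7.47, 8.64 and 3.12 in cachexia. The size of both ratios thus depends on the length used. *Angptl4* over *Angptl8* was 1.77, 4.58 and 2.60 in controls and 53.3, 32.2 and 212 in cachexia, the last resting on 24 counts of *Angptl8*. *Lrp1* over *Vldlr* was 5.30, 5.73 and 5.91 in controls and 12.6, 19.1 and 24.0 in cachexia. None of these ratios overlapped between groups. Each pair joins a member that was higher with one that was lower, both without overlap, so this follows from the single genes. The ratios are built from the same values as the fold changes and are given without a test. Cachexia replicate 3 was the sample farthest from the control mean in the direction of the group difference for 7 of 9 members, all but *Sel1l* and *Lrp1*, and for 44.1% of all tested genes. It also had the lowest total count and the highest neutrophil markers, whose part in this was not tested.

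Genes around the set were described by their number of calls or, for receptor-related genes and PPAR targets, by single genes. As background for these counts, 9.0% of all tested genes were called higher and 8.63% lower. Among 11 plasma apolipoproteins and lipase modulators, 6 were tested, 2 were higher and none lower, with a median log2 fold change of 1.09. *Apoc3*, an apolipoprotein that inhibits LPL and is made mainly by liver, rose from 0.896 ± 0.630 to 47.6 ± 42.9 CPM (log2 fold change 5.69, SE 0.90, edgeR adjusted p = 0.00706), with 10.4, 94.5 and 37.9 CPM in cachexia replicates 1 to 3. That call held in 13 of the 14 other settings that tested the gene and was lost with limma-voom (adjusted p = 0.0620). *Lipg*, the endothelial lipase, rose from 2.40 ± 1.80 to 8.41 ± 2.61 CPM (log2 fold change 1.80, edgeR adjusted p = 0.0498), a call at the threshold that held in 7 of 15 other settings. *Apoc2*, the activator of LPL, was near 0 and untested with *Apoc4*, *Apoa5*, *Apob* and *Lipc*. Among 10 proprotein convertases and surface or trafficking proteins, 2 were higher and 1 lower (median 0.01). *Pcsk5*, a convertase that cleaves lipases and ANGPTL proteins, rose from 28.3 ± 2.27 to 81.7 ± 34.6 CPM (log2 fold change 1.53, edgeR adjusted p = 0.0106), and *Sdc4*, a heparan sulfate proteoglycan, rose by 0.95 on the log2 scale (0.0423). *Sorl1*, a sorting receptor that carries LPL to endosomes, fell by 1.30 on the log2 scale (0.0480). The calls of *Sdc4* and *Sorl1* held in 7 and 6 of 15 other settings, that of *Sorl1* in 1 of the 6 that leave out a sample (without control replicate 1), whereas that of *Pcsk5* held in 14. *Sorl1*, *Srebf1* and *Ucp3* overlap other annotated genes, and their counts are uncertain to that extent. The same holds for other named genes, among them *Cuzd1*, *Syvn1*, *Erlec1*, *Timp4* and *Csf1r*.

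*Mylip*, which encodes a ubiquitin ligase that degrades VLDLR and the related receptor LRP8, rose from 64.4 ± 4.86 to 173 ± 74.5 CPM (log2 fold change 1.43, edgeR adjusted p = 0.0154), and all 3 controls were below all 3 cachexia samples. Its call held in 13 of 15 other settings and was lost without control replicate 2 or control replicate 3. *Lrp2*, an endocytic receptor related to *Lrp1*, measured 122 CPM in control replicate 1 and 7.93 to 12.2 CPM in the other samples, the same library that carried the epididymal marker.

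Of 15 transcription factors that act on *Lpl* or *Angptl4*, 1 was higher and 2 were lower (median -0.25). The shares over all tested genes were 9.0% higher and 8.63% lower. *Srebf1*, which drives lipogenic genes, fell from 565 ± 45.7 to 164 ± 91.7 CPM (log2 fold change -1.79, edgeR adjusted p = 0.0188), and *Rxrg* fell by 1.19 (0.0489). These calls held in 12 and 9 of 15 other settings, and neither held without control replicate 2 or control replicate 3. *Rxrb*, another retinoid X receptor, rose by 0.78 (0.00876), a call that held in 14 of 15 other settings and was lost without control replicate 3. *Pparg*, named here after its value was seen as the nuclear receptor that drives *Lpl* in fat, had a log2 fold change of -0.28 (edgeR adjusted p = 0.425). Among other target genes of the PPAR nuclear receptors, *Pdk4*, which restrains pyruvate oxidation, rose from 40.5 ± 5.72 to 531 ± 310 CPM (log2 fold change 3.71, edgeR adjusted p = 0.00385), and *Ucp3*, a mitochondrial carrier, rose by 1.05 (0.0421, held in 10 of 15 other settings). *Plin2* (log2 fold change 0.09), *Cpt1a* (-0.18) and *Acadm* (-0.03) were tested and not called, and *Cpt1b* and *Fabp3* were too low to test. Without control replicate 1 the counts of higher and lower calls were 2 and 0 for the apolipoprotein list, 1 and 1 for the convertase list, 0 and 1 for ER quality control and 2 and 1 for the transcription factors.

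**Figure D5:**
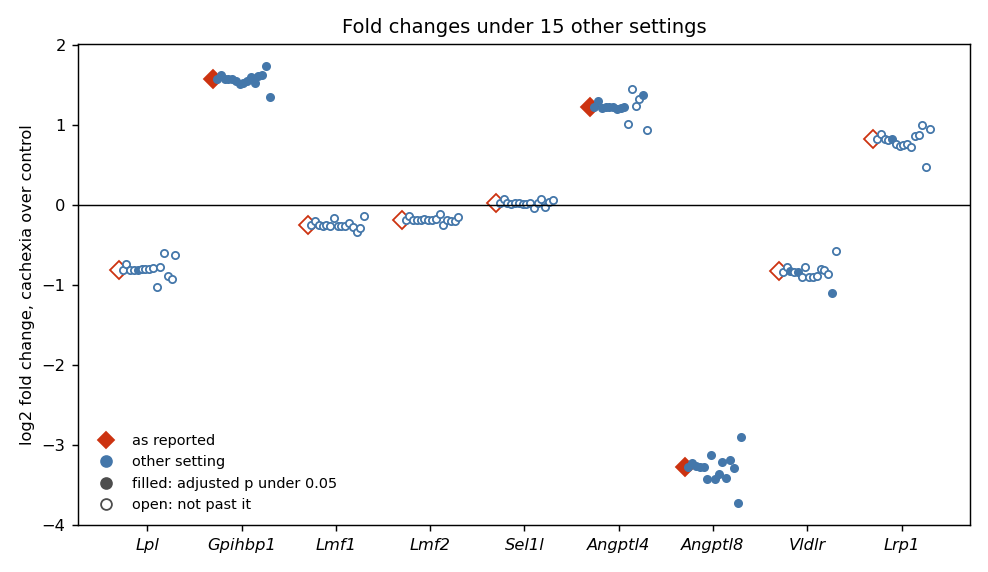
Log2 fold change of cachexia over control for each gene as reported (diamond) and under 15 other settings (circles), filled where the adjusted p is under 0.05. *Gpihbp1* and *Angptl8* are filled throughout, *Angptl4* in 10 of 15 other settings, *Vldlr* in 3, *Lpl* and *Lrp1* in 1 each, and *Lmf1*, *Lmf2* and *Sel1l* in none.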

How the data were processed

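RNA-seq of eWAT from 3 control and 3 cachexia samples was analyzed, grouped by the labels. The authors filtered the reads for adapters and quality, used Hisat2 for alignment, counted reads per gene with featureCounts 1.5.0-p3 and deposited raw counts. The authors also deposited FPKM values, from count and gene length, which carry a further factor per sample of 0.932 to 1.06. The labels name the build mm9, but 98.3% of the genes found in GENCODE M21 have its GRCm38 start and end, and coordinates are given as deposited. The deposited table of fold changes and p-values, with 6 columns of per-sample values, was not used here.

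The quasi-likelihood test of edgeR 4.0.16 (R 4.3.3) was applied to the counts of 16003 genes that passed filterByExpr, with TMM factors and no covariate, after a test on simulated data. P-values were adjusted over these genes by Benjamini-Hochberg and called under 0.05. CPM were scaled by TMM. Two-sided exact permutation tests used log2(CPM + 0.5). The biological coefficient of variation was 0.264. Near-identical counts were found in none of the 15 sample pairs. The members and lists were chosen with earlier results of these data known. Named were all members, up to 4 called genes of each pathway list by p-value, the 2 most abundant genes of each marker list, further list genes that were chosen after their values were seen, the 3 genes most like *Lpl*, and genes overlapping a member. Some genes that this rule covers, and the counts of 2 lists that hold them, are not reported here. Other settings were RLE factors, library totals, no filter, at least 10 counts in every sample, DESeq2 1.42.0, limma 3.58.1 (voom, or log2 FPKM with a pseudocount of 1 or 0.1), a replicate block and each sample left out. For the levels relative to markers they were a pseudocount of 2, log2(FPKM + 0.1), capillary markers and each sample left out.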

Additional observations from a re-analysis of the deposited data

How the results depend on the processing

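*Gpihbp1* and *Angptl8* passed the threshold in 15 of 15 other settings and *Angptl4* in 10. Of 1440 genes called higher and 1381 called lower, leaving out 1 sample left 382 to 1197 and 446 to 1142, with the fewest without control replicate 3 (382 and 446) and next without control replicate 2 (600 and 712), where fewer samples were fitted. Of 2 members called higher, leaving out 1 sample left 1 to 2, and of 1 member called lower it left 1 to 2. The members called lower numbered 2 with no filter (*Vldlr* added) and 3 with DESeq2 (*Vldlr* and *Lpl* added), and DESeq2 added *Lrp1* among those higher. The cause was not tested. *Sel1l* had log2 fold changes of -0.033 to 0.074 with 1 sample left out, below 0 without control replicate 1 or cachexia replicate 1 (-0.026), against 0.02 in all samples. The difference of *Lpl* relative to adipocyte markers was -1.12 to -0.58 with 1 sample left out, and that of *Gpihbp1* relative to endothelial markers 0.44 to 1.08. Same-numbered samples did not deviate together (correlations -0.0031, -0.011 and 0.0085), so the numbers were not taken to pair the samples. The replicate block left 913 genes called higher and 968 called lower and changed no call of a member. Of 480 recomputed counts of list members, 396 were within 1.5 times. With 3 samples a group an exact permutation test cannot go below 0.1, and differences such as that of *Lpl* were not resolved at this number of samples.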
